A study of Mus musculus with 8 samples.

Results

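Dntt, Flt3, Il7r, Satb1, Notch1 and Mn1, 6 genes tied to the lymphoid bias of early blood progenitors, were followed among the 27998 genes of a single-cell RNA-seq table of mouse bone marrow KL cells. They were taken as a list of names, drawn up when earlier results of these data were known. KL cells carry the receptor c-Kit (CD117+) and lack the surface markers of mature lineages (CD3, CD4, CD8, CD45R, CD11b, TER119 and GR1). They came from B6 female mice of 3 to 4 months, 10 mice per housing group, with 2 or 3 mice pooled for each of 4 libraries per group. SPF mice stayed in a specific-pathogen-free facility, and CVT mice were moved from it to a conventional facility and lived for 1 month with mice born there. Both groups were otherwise untreated, but food and cages differed with the facility. SPF mice had autoclaved chow and covered, individually ventilated cages, and CVT mice had unautoclaved chow and open-top cages. The paper names food, ventilation, cage covering and barrier control as factors that may contribute, so CVT against SPF is a comparison of housing as a whole. Libraries were made with the 10x Genomics 3′ kit (version 2), in which each captured transcript carries a unique molecular identifier (UMI) and is counted once. The table holds 29891 cells, 12331 from SPF pools and 17560 from CVT pools.

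Each cell name ends in a pool number (SPF pools 1, 2, 7 and 8, CVT pools 3, 4, 5 and 6), and cell numbers alone do not fix that mapping. Pools held between 19041749 and 59812346 UMIs, with a median per cell between 7529.5 and 12771.5, and 522 barcodes occurred in more than 1 pool. Levels are given as counts per 1e+06 UMIs (CPM) over the summed cells of a state and pool. They were not compared between genes. A test across pools measures the spread between pools of mice, and in it fewer cells of a kind and less RNA per cell cannot be told apart for KL cells as a whole.

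Cells were grouped into 33 clusters with the 6 genes left out of the clustering, and clusters were named from other marker genes. LMPP-like cells, the lymphoid-primed multipotent progenitors, were 1 cluster of 1360 cells (4.55% of all), with between 77 and 226 cells in a pool. That name rested on 3 markers (Lsp1, Wfdc17 and Tcf4) among the 100 most specific genes, and no alternative clustering gave a cluster the same name, so it is the least secure of the names used. Its leading genes were Arpp21, Il12a, Wfdc17 and Cox6a2, and markers of other lymphoid cells were present at low levels. Of the B cell markers 8 of 9 had a UMI (summed level 52.4 to 97.5 CPM in a pool, Pax5 at 0), and of the T and NK cell markers 5 of 7 (126 to 238 CPM, Cd3e and Il2rb at 0). Myeloid markers were higher. The 11 granulocyte-monocyte progenitor markers stood at 1684 to 2472 CPM and the 8 late granulocyte markers at 430 to 1641 CPM. The 12 LMPP markers stood at 1763 to 2227 CPM. Cluster 12 (1103 cells, led by Wfdc18, Wfdc17, Gm43643 and Ccl3), cluster 20 (836 cells, led by the cell cycle genes Hist1h2ap and Nusap1) and cluster 30 (92 cells, led by Tcf7, Rora and Ccl5) took no name. They are described by number, a choice made after their levels were seen. Among the 100 most specific genes of cluster 12 most markers were multipotent (4) or long-term stem cell markers (3), with 1 LMPP marker. Cluster 5 (1494 cells, led by 2810417H13Rik, F13a1 and Ly86) also took no name. It held 7 granulocyte-monocyte progenitor markers and is not described on its own.

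Lymphoid priming is the early appearance of lymphoid transcripts in cells that can still form myeloid progeny. Flt3 is the receptor of FLT3 ligand and marks multipotent progenitors that have left the stem cell state. Il7r is the alpha chain of the receptor for IL-7, the cytokine that early B and T cell precursors depend on. Notch1 is a receptor whose signal directs progenitors to the T cell fate. Satb1 is a chromatin organizer that favours lymphoid over myeloid fate. Mn1 is a transcriptional co-regulator known from myeloid leukaemia. Dntt encodes terminal deoxynucleotidyl transferase (TdT), which adds bases at the junctions of antigen receptor genes and is a standard mark of lymphoid-primed cells.

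In the GRCm38 assembly, Dntt lies on the plus strand at chr19:41029275-41059525 and Mn1 on the plus strand at chr5:111417362-111457033. The other 4 genes lie on the minus strand, Flt3 at chr5:147330741-147400489, Il7r at chr15:9505788-9530176, Satb1 at chr17:51736187-51833290 and Notch1 at chr2:26457903-26516663. The submitters' processing notes name mm9, an older assembly, so these positions are those of the reference annotation and not of the counts. RefSeq promoter windows (GRCm38.p6, 250 bases before to 50 after a start site) were found for 5 of the 6 genes, all but Mn1. Of these, 3 are shown, because Dntt is the standard mark of lymphoid-primed cells and Satb1 and Notch1 were the pair that followed each other most closely over clusters. Windows were searched on both strands for CAGGTG (an E-box, the kind of site that E proteins bind), GAGGAA (a core of Ets factor sites) and TGGGAA (a core of Ikaros sites), and capitals mark each match, which here stands on the opposite strand as CACCTG or TTCCTC. The windows cover chr19:41029025-41029324 on the plus strand, chr17:51833241-51833540 on the minus strand and chr2:26503773-26504072 on the minus strand.
Dntt: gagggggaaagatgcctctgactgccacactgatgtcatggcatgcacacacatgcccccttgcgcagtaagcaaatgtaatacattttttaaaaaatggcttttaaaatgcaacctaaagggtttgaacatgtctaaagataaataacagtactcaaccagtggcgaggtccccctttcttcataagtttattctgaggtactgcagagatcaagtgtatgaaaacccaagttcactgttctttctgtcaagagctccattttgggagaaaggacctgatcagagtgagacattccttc
Satb1: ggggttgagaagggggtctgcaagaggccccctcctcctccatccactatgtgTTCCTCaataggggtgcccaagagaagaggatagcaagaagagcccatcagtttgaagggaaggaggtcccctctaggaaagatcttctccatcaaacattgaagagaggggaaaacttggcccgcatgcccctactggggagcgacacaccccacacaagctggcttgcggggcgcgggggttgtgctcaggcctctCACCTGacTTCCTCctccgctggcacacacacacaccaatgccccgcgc
Notch1: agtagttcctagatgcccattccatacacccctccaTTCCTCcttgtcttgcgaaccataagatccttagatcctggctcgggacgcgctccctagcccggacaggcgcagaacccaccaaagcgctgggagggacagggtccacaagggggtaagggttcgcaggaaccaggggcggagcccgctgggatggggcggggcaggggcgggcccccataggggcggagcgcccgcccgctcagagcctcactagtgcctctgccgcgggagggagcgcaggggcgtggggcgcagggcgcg
Satb1 has 5 such windows in the table, and the one shown, at its outermost start site, held 1 E-box match and 2 Ets core matches, and the Notch1 window held 1 Ets core match. Of the other 4 Satb1 windows, 1 held no match, 1 an E-box and an Ikaros match, 1 a pair of Ets core matches and 1 an Ets core and an Ikaros match. The windows of Dntt, Flt3 and Il7r held none of these letters. Among 27025 promoter windows, 20.03% held CAGGTG, 28.31% held GAGGAA and 25.52% held TGGGAA, so a match is a description and not a sign of binding.

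Dntt was highest in LMPP-like cells and cluster 12 and was low outside the multipotent and lymphoid states. In the SPF pools 1, 2, 7 and 8 its level in LMPP-like cells was 1041, 1160, 1045 and 762 CPM, and in the CVT pools 3, 4, 5 and 6 it was 1479, 1012, 894 and 1232 CPM. LMPP-like cells held 44.3% of all Dntt UMIs. Cluster 12 followed with 649 ± 185 CPM (SD, n = 8 pools), and the pools of the neighbouring states overlapped. Cluster 20 reached 468 ± 196 CPM and the dividing multipotent (MPP-like) cluster 14 reached 395 ± 142 CPM, while the other MPP-like cluster, 9, held 29.3 ± 11.2 CPM. The long-term stem cell-like (LTHSC-like) cluster 3 held 56.0 ± 14.4 CPM and the other stem cluster, 13, held 8.41 ± 7.67 CPM. B-like cells (333 ± 162 CPM) and cluster 30 (247 ± 152 CPM) also carried the transcript. Erythroid (MEP-like) cells stood at 4.97 ± 1.85 CPM.

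Free RNA in droplets gives a few UMIs to cells that do not make a transcript, so shares of cells with a UMI are read against MEP-like cells. With each cell thinned to 2759 UMIs, the smallest total of a cell, a Dntt UMI was found in 65.9% of LMPP-like cells and in 1.29% of MEP-like cells. Without thinning the shares were 81.7% and 5.79%, at median depths of 9185.5 and 11896.5 UMIs. The thinned share in granulocyte-monocyte progenitor-like (GMP-like) cells, 1.74%, was close to that background. For the other genes the thinned share in MEP-like cells was 0.60% (Flt3), 0.05% (Il7r), 1.04% (Satb1), 0.31% (Notch1) and 0.39% (Mn1), and all 5 were found more often than that in LMPP-like cells, in 43.7%, 7.13%, 39.3%, 18.7% and 3.90% of them.

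Flt3 was spread over more states than Dntt. Its level was highest in cluster 12, with 362, 253, 309 and 286 CPM in the SPF pools and 295, 232, 273 and 282 CPM in the CVT pools. LMPP-like cells came next, with 231, 217, 221 and 186 CPM in the SPF pools and 227, 185, 210 and 197 CPM in the CVT pools. The lowest pool of cluster 12 lay just above the highest pool of LMPP-like cells. The MPP-like cluster 14 held 129 ± 16.2 CPM and cluster 20 held 112 ± 24.9 CPM. The LTHSC-like clusters 3 (86.8 ± 13.1 CPM) and 13 (37.8 ± 13.8 CPM) averaged above GMP-like cells (18.97 ± 2.77 CPM), and the pools of cluster 13 overlapped with those of GMP-like cells. Dendritic-like cells (93.8 ± 50.7 CPM) and monocyte-like cells (64.9 ± 13.4 CPM) kept Flt3 as well. B-like cells, at 6.95 ± 13.9 CPM, had little, and Flt3 had no UMI in 5 of the 8 pools of B-like cells, which at 3 counts allows levels of up to 19.9 to 76.2 CPM in those pools.

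Il7r was the most restricted of the receptors. The highest levels were in cluster 30 (201 ± 97.2 CPM), B-like cells (199 ± 82.4 CPM), dendritic-like cells (158 ± 126 CPM) and T and NK-like cells (114 ± 117 CPM). These states hold between 49 and 168 cells each, and their pools overlapped throughout. In LMPP-like cells Il7r stood at 26.2, 33.5, 21.1 and 29.6 CPM in the SPF pools and at 43.3, 32.1, 17.7 and 37.1 CPM in the CVT pools, below each pool of B-like cells. Cluster 20 (24.8 ± 14.2 CPM) overlapped with LMPP-like cells. Cluster 12, with the highest Flt3, held 4.66 ± 2.17 CPM of Il7r, under every LMPP-like pool. LTHSC-like cells held 3 Il7r UMIs in 2786 cells and GMP-like cells held 5 in 3668 cells, counts too low to set an order.

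**Figure D1:**
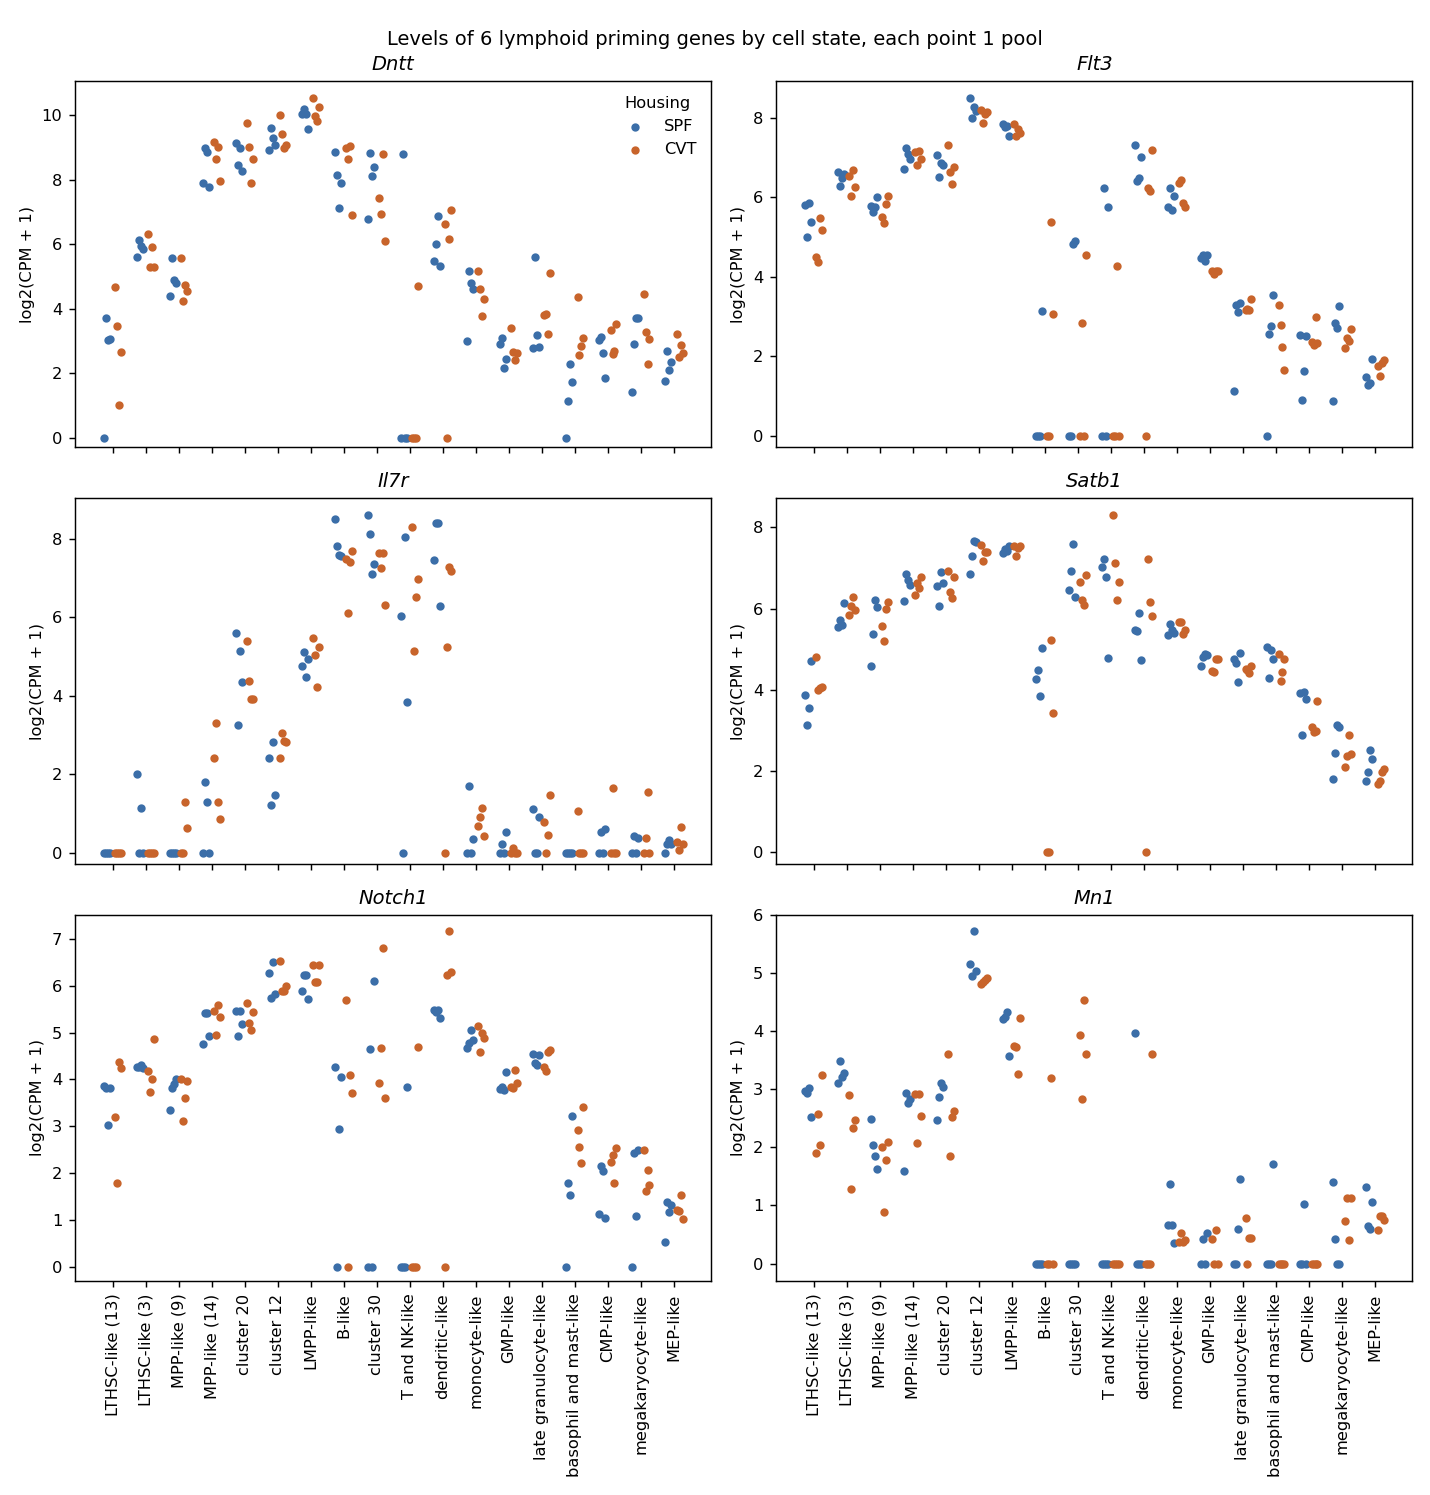
Level of each gene, as log2(CPM + 1), in 18 cell states, with 1 point for each SPF (blue) and CVT (orange) pool. Dntt is highest in LMPP-like cells and cluster 12, Flt3 and Mn1 are highest in cluster 12, and Il7r is highest in the small B-like, T and NK-like and dendritic-like states and cluster 30, where a pool holds few cells and points scatter widely.

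Satb1 was highest in LMPP-like cells and cluster 12, and its level in LMPP-like cells varied least among pools. The SPF pools held 164, 178, 169 and 185 CPM and the CVT pools 185, 156, 179 and 184 CPM. Cluster 12 (167 ± 29.5 CPM) could not be told from LMPP-like cells by its pools. T and NK-like cells (130 ± 85.3 CPM) and cluster 30 (104 ± 40.2 CPM) followed, then cluster 20 (95.5 ± 19.8 CPM) and the MPP-like cluster 14 (95.1 ± 14.2 CPM), with overlapping pools. The stem clusters differed, with 59.2 ± 11.02 CPM in cluster 3 and 16.3 ± 6.67 CPM in cluster 13, and their pools did not overlap. Monocyte-like (44.6 ± 4.24 CPM) and GMP-like (25.0 ± 3.03 CPM) cells were above MEP-like cells (3.08 ± 0.87 CPM).

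Notch1 was present in lymphoid-primed and in myeloid states. LMPP-like cells held 58.2, 74.1, 74.5 and 51.4 CPM in the SPF pools and 86.0, 66.3, 66.8 and 85.8 CPM in the CVT pools. Cluster 12 held 67.9 ± 15.5 CPM, and its pools overlapped with those of LMPP-like cells. Dendritic-like cells held 57.8 ± 41.6 CPM, cluster 20 held 38.7 ± 6.46 CPM and the MPP-like cluster 14 held 37.3 ± 7.74 CPM. Monocyte-like (28.4 ± 3.81 CPM), late granulocyte-like (20.6 ± 2.51 CPM) and GMP-like cells (14.2 ± 1.86 CPM) all stood above MEP-like cells (1.29 ± 0.43 CPM). GMP-like and monocyte-like cells held 14.8% and 12.9% of all Notch1 UMIs, beside 16.9% in LMPP-like cells.

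Mn1 was the least abundant by count, with 809 UMIs in all KL cells, most often in cluster 12. Cluster 12 held 34.7, 29.6, 51.6 and 31.6 CPM in the SPF pools and 26.8, 27.7, 28.4 and 29.2 CPM in the CVT pools. LMPP-like cells held 17.5, 17.9, 19.1 and 10.9 CPM in the SPF pools and 12.4, 12.2, 8.57 and 17.6 CPM in the CVT pools, all below cluster 12. Cluster 20 (6.15 ± 2.57 CPM), the stem clusters 3 (6.39 ± 2.86 CPM) and 13 (5.56 ± 2.03 CPM) and the MPP-like cluster 14 (5.20 ± 1.74 CPM) overlapped with each other. In GMP-like cells 12 Mn1 UMIs were counted in 3668 cells, and the thinned share with a UMI was 0.05%. For Mn1 that lies below the MEP-like share of 0.39%, and MEP-like cells held 9.02% of all Mn1 UMIs, so MEP-like cells are no measure of free RNA for this gene.

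The genes were found in the same cells. Of LMPP-like cells, thinned as above, 33.3% held a UMI of 2 of the genes Dntt, Flt3, Il7r and Satb1, 15.4% of 3 and 2.35% of all 4. In cluster 12, 13.2% held 3 of the 4 and 0.363% held all. Of MEP-like cells 97.1% held none. Among all KL cells with a Flt3 UMI 38.1% also held Dntt, against 6.21% of those without, and the share was higher in 8 of 8 pools. Within LMPP-like cells the gap was narrower, with Dntt in 72.1% of cells with a Flt3 UMI and in 61.1% of those without (higher in 7 of 8 pools).

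Il7r stood out within LMPP-like cells. It was found in 10.5% of the cells with a Dntt UMI and in 0.647% of those without, higher in 8 of 8 pools, and 96.9% of the 97 cells with an Il7r UMI held Dntt. Mn1 was found in 6.18% of LMPP-like cells with a Satb1 UMI and in 2.42% of those without, also higher in 8 of 8 pools. Mn1 and Flt3 showed no such gap, at 3.87% and 3.92%. Without thinning the Mn1 shares were 12.7% and 9.51% with and without a Satb1 UMI, higher in 6 of 8 pools. For Flt3 they were 12.8% and 7.46%, higher in 7 of 8 pools, so the contrast between Satb1 and Flt3 depended on thinning. In cluster 12, thinned, the Mn1 shares were 8.46% with and 9.84% without a Satb1 UMI (higher in 1 of 8 pools). These are descriptions of cells that share a library and were not tested.

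**Figure D2:**
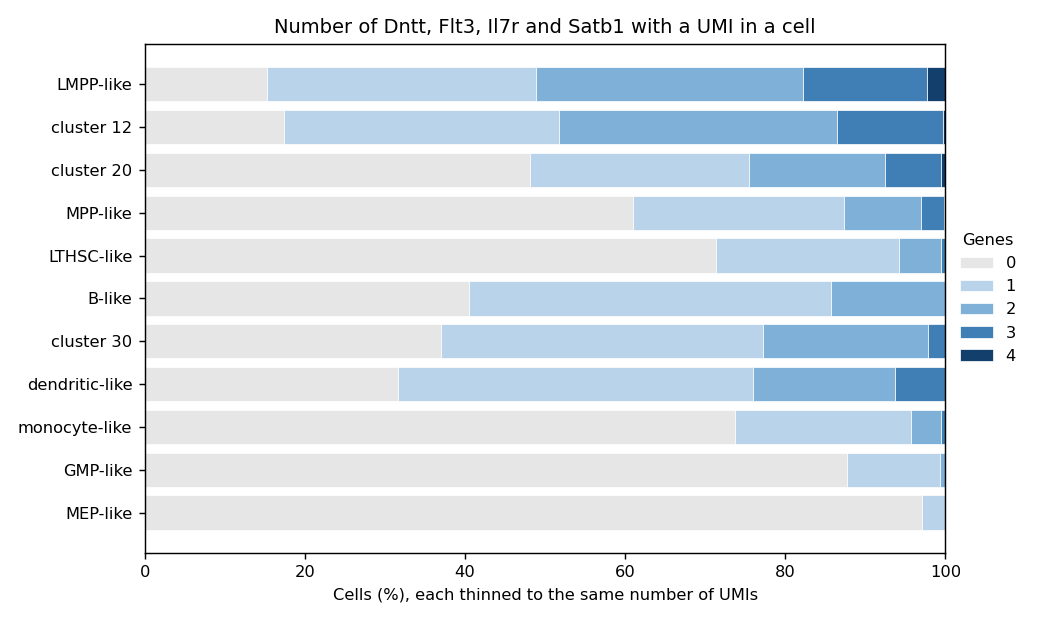
Share of cells (%), each thinned to the same number of UMIs, with a UMI of 0, 1, 2, 3 or 4 of Dntt, Flt3, Il7r and Satb1, in 11 states over all pools. In LMPP-like cells 15.3% held none and 2.35% held all 4, whereas in MEP-like cells 97.1% held none.

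Across the 33 clusters, with log2(CPM + 1) over all pools, Satb1 and Notch1 followed each other most closely (Pearson r = 0.85), then Flt3 and Satb1 (0.84) and Flt3 and Notch1 (0.81). Dntt was nearest to Mn1 (0.79), and Flt3 and Il7r were farthest apart (0.36). The clusters share libraries and were built from the other genes of the same cells, so no test is given. Among 8176 genes with at least 20 CPM in a cluster, the patterns most like Dntt were those of Emp1 (0.90), Arpp21 (0.89), Sstr2, Snn and Sdc1. Flt3 was most like Laptm4b (0.92), Clcf1 (0.90), Rasa4, Gpr171 and H2afy. Il7r was most like Ccr7 (0.92), Grap (0.90), Ly6d, Slamf6 and St6gal1. Satb1 was most like Arid5a (0.91), Gpr171, Tespa1, Il4ra and Notch1. Notch1 was most like Mpnd (0.92), Tspan2 (0.90), Il4ra, Milr1 and Lcp1, and Mn1 was most like Sstr2 (0.90), Gm5111, Myl10, Sema3d and Pgr.

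CVT and SPF pools were then compared, to ask whether these genes differed between the housing groups. The test was edgeR's quasi-likelihood test on UMIs summed per pool, with Benjamini-Hochberg adjustment over all genes tested. In KL, LTHSC-like, MPP-like, LMPP-like and GMP-like cells none of the 6 genes had an adjusted p under 0.05. Nor did any other gene, so the background of called genes was 0% of 13092 genes in KL, 0% of 9381 in LTHSC-like, 0% of 9447 in MPP-like, 0% of 8757 in LMPP-like and 0% of 10240 in GMP-like cells. At an unadjusted p under 0.05, edgeR counted 392 genes higher and 529 lower in CVT in KL cells, 284 and 192 in LTHSC-like, 286 and 226 in MPP-like, 288 and 222 in LMPP-like and 354 and 317 in GMP-like cells. DESeq2 called 13 genes in KL cells, none of them among the 6, and 0 in the other populations.

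In LMPP-like cells the levels of the 2 groups overlapped for each gene, although Flt3, Il7r and Mn1 had higher levels in other states. Dntt averaged 1154 ± 258 CPM in CVT and 1002 ± 169 CPM in SPF pools (SD, n = 4). Its log2 fold change was 0.26, with a standard error of 0.11 derived from the F statistic (edgeR, Benjamini-Hochberg adjusted p = 0.85). CVT pool 3 had the highest Dntt level here and in cluster 12, cluster 20, and MPP-like and LTHSC-like cells, and without it the log2 change in LMPP-like cells was 0.14. Notch1 had a log2 change of 0.29 (SE 0.13, edgeR adjusted p = 0.85). Flt3 and Satb1 were nearest to no difference, with log2 changes of 0.00 (SE 0.09) and 0.06 (SE 0.09). Il7r had a log2 change of 0.23 (SE 0.20) and Mn1 of -0.28 (SE 0.24). With 2000 variable genes, in the cluster that shared the most cells with the LMPP-like one, the log2 change of Il7r was -0.35.

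The share of LMPP-like cells with a UMI, at equal depth, did not separate the groups either. Dntt was found in 67.7% ± 6.9 of CVT and 63.2% ± 8.6 of SPF cells (exact permutation test, two-sided, n = 4 pools each, p = 0.457), and Satb1 in 37.7% ± 4.6 and 41.7% ± 2.1 (exact permutation p = 0.20). For the remaining 4 genes the exact p was at least 0.60. The smallest p that 4 against 4 pools can give is 0.0286, over 70 regroupings.

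**Figure D3:**
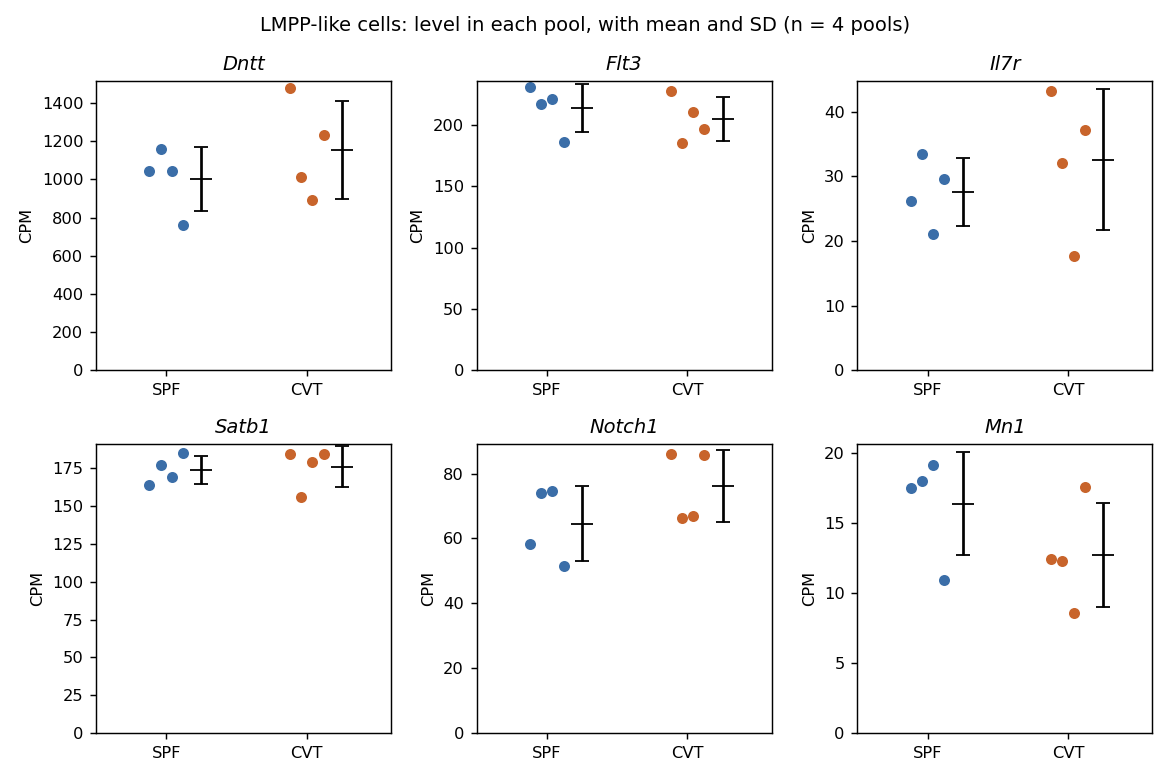
Level (CPM) of each gene in LMPP-like cells, with 1 point per pool and the mean with SD beside it (n = 4 pools per group). The SPF and CVT points overlap in all 6 panels, and the CVT mean of Mn1, 12.7 CPM, lies below the SPF mean, 16.4 CPM.

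Mn1 in KL cells had the lowest adjusted p of the members. Its level was 3.05, 3.33, 4.14 and 2.87 CPM in the SPF pools and 1.91, 1.32, 2.03 and 2.42 CPM in the CVT pools, so the highest CVT pool was under the lowest SPF pool. Of the 13092 genes tested 5.26% had pools apart in that direction and 0.901% in the other, and Mn1 was the only one of the 6. The log2 fold change was -0.75 (SE 0.20, edgeR, Benjamini-Hochberg adjusted p = 0.64). The share of KL cells with a Mn1 UMI at equal depth was 0.742% ± 0.163 in CVT and 1.29% ± 0.12 in SPF pools. The unadjusted p was 0.0286 (exact permutation test, two-sided, 1 of 12 comparisons of shares). With Benjamini-Hochberg adjustment over the 6 genes the permutation p was 0.17. Because 0.0286 is the smallest p that 4 against 4 pools can give, 1 gene alone could not pass after this adjustment. The adjusted value therefore decides nothing about this share. The difference in shares of -0.553 percentage points was -1.10 without thinning and -0.0039 when a cell had to hold at least 2 UMIs.

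The make-up of the pools was set beside the KL value of Mn1. Of the states with the most Mn1 UMIs, cluster 12 (28.1% of them) made up 3.04% ± 0.55 of cells in CVT and 4.52% ± 0.94 in SPF pools. LMPP-like cells (22.2%) made up 4.39% ± 0.35 and 4.70% ± 0.54. LTHSC-like cells (13.7%) made up 7.72% ± 2.16 against 10.997% ± 2.95, while GMP-like cells were 14.4% ± 3.2 against 8.95% ± 0.96. With each cluster set to its mean share over the 8 pools, a calculation added after the data were seen, Mn1 averaged 2.17 ± 0.32 CPM in CVT and 2.84 ± 0.29 CPM in SPF pools. The log2 ratio was then -0.39 (exact permutation test, two-sided, p = 0.0571), and the pools overlapped. Within cluster 12 the highest CVT pool stood at 29.2 CPM and the lowest SPF pool at 29.6 CPM, the latter set by 45 UMIs. The share of all genes with pools apart was not counted in cluster 12, so these are values only.

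The other genes in KL cells had smaller differences. Flt3 stood at 40.8, 45.9, 50.6 and 45.1 CPM in the SPF pools and 37.2, 31.3, 41.5 and 39.1 CPM in the CVT pools, with a log2 change of -0.25 (SE 0.10, edgeR adjusted p = 0.68). CVT pool 5 exceeded SPF pool 1. Il7r had a log2 change of -0.43 (SE 0.21, edgeR adjusted p = 0.70), Dntt -0.07 (SE 0.22), Satb1 -0.14 (SE 0.16) and Notch1 0.01 (SE 0.14). As log2 ratios of mean CPM, which differ a little from edgeR's values, the differences went from -0.29 to -0.09 for Flt3 at a fixed make-up, from -0.49 to -0.12 for Il7r, from -0.19 to -0.002 for Satb1, from -0.12 to 0.23 for Dntt and from -0.04 to 0.08 for Notch1. The ratio of Mn1 went from -0.80 to -0.39.

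In LTHSC-like cells the level of Mn1 was 7.29, 8.78, 7.83 and 7.04 CPM in the SPF pools and 5.65, 2.24, 3.71 and 6.19 CPM in the CVT pools. The groups did not overlap, as was so for 2.92% of the 9381 genes tested in that direction, and Mn1 was again the only one of the 6. The log2 change was -0.72 (SE 0.30, edgeR adjusted p = 0.94), and a pool held between 4 and 33 Mn1 UMIs here. Of the summed marker levels in LTHSC-like cells, only that of the monocyte list lay apart between the groups. The 7 monocyte markers, all with a UMI, stood at 91.5 to 124 CPM in CVT and 55.6 to 87.3 CPM in SPF pools. The 10 LTHSC markers ranged from 443 to 702 and from 637 to 733 CPM, and the 11 GMP markers from 1182 to 1817 and from 1058 to 1334 CPM, all with a UMI. For both lists the groups overlapped. Some other lists had nearly equal means, such as the LMPP markers (979 CPM in CVT and 988 CPM in SPF pools). The part of such marker levels in the Mn1 value was not tested. In cluster 3, which also had 4 multipotent markers, the Mn1 pools lay apart. They overlapped in cluster 13, where the CVT pool 6 was highest at 8.47 CPM. The share of all genes with pools apart was not counted in either cluster. Satb1 went the other way, with 32.8, 34.7, 32.8 and 51.0 CPM in the SPF pools and 50.2, 54.4, 54.8 and 42.5 CPM in the CVT pools. Its log2 change was 0.38 (SE 0.14, edgeR adjusted p = 0.94), and SPF pool 8 lay within the CVT range. Dntt (0.10, SE 0.21), Flt3 (-0.02, SE 0.12) and Notch1 (0.14, SE 0.20) had small log2 changes, and Il7r was too rare to test.

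**Figure D4:**
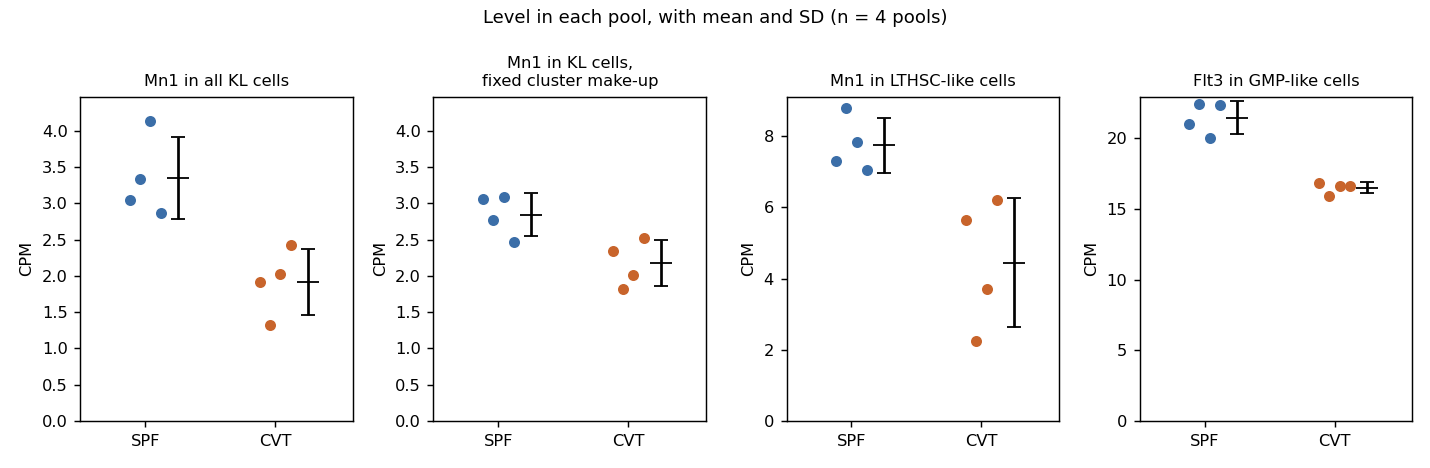
Level (CPM) per pool, with mean and SD (n = 4 pools per group), for Mn1 in all KL cells, Mn1 in KL cells at a fixed cluster make-up, Mn1 in LTHSC-like cells and Flt3 in GMP-like cells. The groups are apart in 3 of the panels and overlap for Mn1 at a fixed make-up, where the means are 2.84 and 2.17 CPM.

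In GMP-like cells Flt3 stood at 21.02, 22.4, 20.03 and 22.4 CPM in the SPF pools and at 16.8, 15.9, 16.6 and 16.6 CPM in the CVT pools. The groups did not overlap, as was so for 4.49% of the 10240 genes tested in that direction, and Flt3 was the only one of the members measured there. The log2 change was -0.35 (SE 0.10, edgeR, Benjamini-Hochberg adjusted p = 0.68). GMP-like cells were 5 clusters with Flt3 levels of 4.18 to 29.5 CPM, and in the 4 clusters present in each pool the groups overlapped. In cluster 24, for example, CVT pools ranged from 18.7 to 26.2 CPM and SPF pools from 24.2 to 62.0 CPM. The 8 MPP markers, with a UMI for 8 of 8 of them, had a lower mean summed level in CVT pools of GMP-like cells. It ranged from 825 to 921 CPM in CVT and from 919 to 960 CPM in SPF pools, so the groups overlapped. Its part in the Flt3 value was not tested. Satb1 (-0.17, SE 0.11), Notch1 (0.04, SE 0.13) and Dntt (0.22, SE 0.27) had log2 changes with an edgeR adjusted p of at least 0.866.

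In MPP-like cells Dntt stood at 114, 244, 194 and 94.8 CPM in the SPF pools and 352, 215, 219 and 113 CPM in the CVT pools. The log2 change was 0.50 (SE 0.26, edgeR adjusted p = 0.88), and without CVT pool 3 it was 0.22. When genes with few counts were kept in the fit the log2 change was again 0.50 and Dntt was 1 of 45 genes that passed (edgeR adjusted p = 7.8e-06). The counts of Dntt were the same in both fits. Its pools overlapped between the groups, and an exact permutation test of its CPM (two-sided, n = 4 pools each) gave p = 0.40. Notch1 (0.24, SE 0.16), Flt3 (0.11, SE 0.09), Satb1 (0.10, SE 0.14) and Mn1 (0.02, SE 0.32) had smaller log2 changes. Il7r was counted 28 times in 2424 cells and was not tested.

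**Figure D5:**
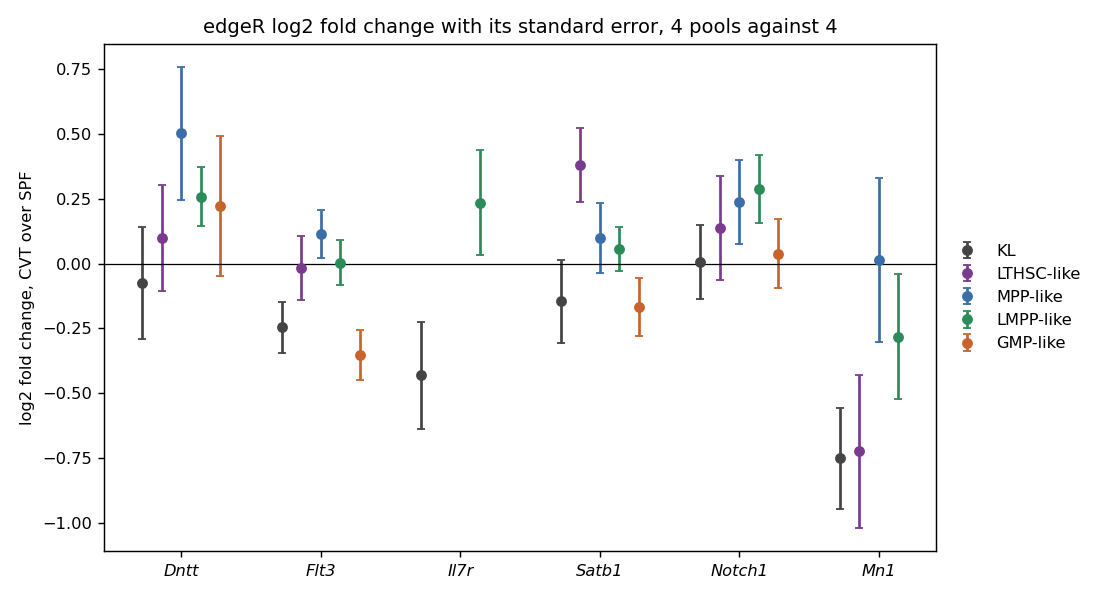
edgeR log2 fold change (CVT over SPF) of each gene in 5 populations, with bars of 1 standard error derived from the F statistic, from 4 pools against 4. Mn1 in KL and LTHSC-like cells is lowest, at -0.75 and -0.72, Dntt in MPP-like cells is highest, at 0.50, and none passed after adjustment.

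The partners of the 6 genes gave no call either. By edgeR, 0 genes passed in either direction, in any of the 5 populations, among the lymphoid programme, the end joining partners of TdT, Flt3 and IL-7 receptor signalling, the Notch pathway, and Mn1, Hox and Satb partners. In LMPP-like cells 18, 6, 17, 13 and 10 genes of these lists were tested, of which 2, 1, 2, 1 and 1 had an unadjusted p under 0.05, beside 5.82% of all genes tested there. The median log2 changes were 0.01, -0.08, 0.07, 0.00 and 0.10, beside 0.00 over all genes. In KL cells 24, 9, 24, 23 and 12 genes were tested, and 2, 1, 3, 4 and 1 of them were lower in CVT at an unadjusted p under 0.05, beside 4.04% of all genes, with 0 higher. The KL medians were -0.14, -0.04, -0.04, -0.05 and -0.08, beside -0.01 over all genes, and 2, 1, 2, 4 and 0 genes had every CVT pool below the SPF pools, against the 5.26% given above. In the lymphoid programme the most abundant in LMPP-like cells, with the changes there, were Mef2c (476 CPM, log2 change 0.01), Sox4 (472 CPM, 0.24) and Cd52 (442 CPM, -0.12). Among the end joining genes in the same cells Xrcc6, a Ku subunit, was at 102 CPM (0.22), Xrcc5, its partner, at 18.3 CPM (-0.44) and Prkdc at 14.2 CPM (-0.23). In receptor signalling the survival gene Bcl2 was at 255 CPM (-0.03), the kinase Jak1 at 86.1 CPM (-0.12) and the receptor chain Crlf2 at 85.1 CPM (0.04). In the Notch pathway the gamma-secretase subunit Psenen was at 206 CPM (-0.07), the fringe Mfng at 62.3 CPM (0.00) and the co-activator Maml3 at 59.6 CPM (0.26). Of the last list Hdac1 was at 108 CPM (0.04), Hoxa9 at 86.4 CPM (0.07) and Meis1 at 71.5 CPM (0.19).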

How the data were processed

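The authors aligned the reads and counted UMIs with Cell Ranger (version not given in the sources used here, and the submitters' processing notes name mm9), and deposited raw UMI counts per gene and cell without normalization. All 29891 cells were used. Counts were scaled and log-transformed, the 1000 most variable genes without the 6 studied were summarised by 30 principal components with scikit-learn 1.9.0, and Leiden clusters were taken from a graph with 30 neighbours per cell (leidenalg 0.10.2, resolution 2). A cluster took the class with the largest share of its markers among the 100 most specific genes, with at least 3 found. It took no name where another class had more markers among its leading genes, as in clusters 5 and 12. Sums of UMIs over each pool were tested in edgeR 4.0.16 (TMM, filterByExpr, glmQLFTest), and DESeq2 1.42.0 was an alternative. The standard errors (SE) given with edgeR's log2 changes are not its own output. Each is the absolute log2 change divided by the square root of the F statistic. The edgeR step was tested on simulated data. Single values were compared by exact permutation. Patterns were compared by Pearson r of log2(CPM + 1). Doublets were not removed, because Scrublet marked 92 cells (0.308%). The members and lists were chosen with earlier results of these data known. Named genes are the 6 members, the 5 most similar patterns for each and, where no list gene passed, the 3 most abundant of each list in LMPP-like cells.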

Additional observations from a re-analysis of the deposited data

Results flagged for a closer look

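In 2 of 54 groups of 4 pools 1 pool stood far from the others, and chance flags about 1 group in 20. Satb1 in LTHSC-like cells was at 51.0 CPM in SPF pool 8, where the next SPF pool was at 34.7 CPM. Notch1 in GMP-like cells was at 16.9 CPM in SPF pool 8, where the next SPF pool was at 13.4 CPM.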

How the results depend on the processing

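No member passed in any of the 5 populations under the alternatives run, except Dntt in MPP-like cells when genes with few counts were kept. There 1 of the 6 passed (log2 change 0.50, edgeR, adjusted p = 7.8e-06, beside 0.88 in the main fit). Of 423 log2 changes recomputed under the alternatives 32 turned sign, in the results named here. Keeping all genes raised the genes called from 0 to 42 in LTHSC-like, 45 in MPP-like, 21 in LMPP-like and 27 in GMP-like cells. A term for the pool sets (1 to 4 and 5 to 8) gave 4 in KL, 3, 1, 2 and 5 in the same order, and DESeq2 gave 13 in KL cells. Resolution 1 gave 1 in LMPP-like cells. Leaving out CVT pool 6 gave 3 in LTHSC-like, 2 in MPP-like and 8 in LMPP-like cells, and leaving out any other pool gave 0 there. The causes were not tested.

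These log2 changes turned sign. At a fixed make-up Dntt in KL cells was 0.23 on the log2 scale. Without the 5% highest doublet scores Notch1 in KL cells was -0.010 and Flt3 in LMPP-like cells -0.00014. With 2000 variable genes Flt3 in LTHSC-like cells was 0.022, Dntt and Notch1 in GMP-like cells were -0.070 and -0.061, and Flt3 and Il7r in LMPP-like cells were -0.044 and -0.35. Flt3 in LMPP-like cells was -0.055 at resolution 1 and -0.081 with the 6 genes used to cluster, where Satb1 in GMP-like cells was 0.032. With 1 pool left out in turn, Dntt ranged from -0.22 to 0.078 in KL, -0.21 to 0.28 in LTHSC-like and -0.11 to 0.48 in GMP-like cells. Notch1 ranged from -0.077 to 0.12, -0.093 to 0.28 and -0.046 to 0.18 in those populations. Flt3 ranged from -0.13 to 0.065 in LTHSC-like and -0.055 to 0.048 in LMPP-like cells, and Satb1 from -0.022 to 0.20 and Mn1 from -0.11 to 0.18 in MPP-like cells.

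For shares of cells, in percentage points (CVT minus SPF), differences without thinning were 0.149 for Dntt and 0.712 for Notch1 in KL and 1.35 for Il7r in LMPP-like cells. In LMPP-like cells Flt3 was -2.22 at resolution 1 and -4.14 with the 6 genes used, Il7r 0.340 and 0.518, and Notch1 was -0.963 with the 6 genes used and -0.0297 without the highest doublet scores. With 1 pool left out, Dntt ranged from -1.25 to 0.348 and Notch1 from -0.313 to 0.0643 in KL cells. In LMPP-like cells Flt3 ranged from -0.461 to 3.71, Il7r from -1.63 to 0.306, Notch1 from -1.34 to 1.02 and Mn1 from -1.37 to 0.0836.

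The removal of high doublet scores, the cluster sharing the most cells with the LMPP-like one and the fixed make-up were chosen after seeing the data. Removal of called doublets was not run, since Scrublet marked under 0.5% of cells. No paired analysis was possible because the pools of the 2 groups share no number. Mn1 and Il7r are limited by depth, with 809 and 1331 UMIs in all.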
